A study of Mus musculus with 28 samples.

Results

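Dio2 and 5 further genes of thyroid hormone action, Slco1c1, Thra, Thrb, Klf9 and Hr, were followed across hippocampal RNA from wild-type and cbp+/- mice. These 6 genes were matched by symbol among the 19938 genes that had a transcript cluster (the set of probes that the array sums to 1 value) with a single symbol, and each of the 6 had 1 cluster. Dio2 was chosen for its rise after novelty, that is, it was selected on measured values of these arrays, so its novelty differences are given below as a description and were not tested. The cbp+/- mice carry 1 disrupted copy of the gene for CBP, a transcriptional coactivator and histone acetyltransferase. All mice were females of a C57/DBA F1 hybrid background at 3 months of age, and wild-type mice were littermates. Trichostatin A (TSA), a histone deacetylase inhibitor, was injected into the abdomen at 2.4 mg/kg, 75 min before the tissue was taken, and the vehicle was DMSO in saline. Novelty was 1 h spent in a new box furnished with toys and tubing, which for TSA-treated mice began 15 min after the injection; other mice stayed in standard housing. For each genotype there were 3 arrays after novelty with TSA, 3 after novelty with vehicle, 3 after TSA in standard housing and 5 standard housing controls, of which replicates 1 and 2 were naive and replicates 3 to 5 had received vehicle. Every one of the 28 arrays was hybridised with a pool of RNA from 3 to 4 mice, and the errors below describe a spread between pools. All values are log2 expression values, and all differences are on that log2 scale.

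Thyroid hormone reaches the brain mainly as the prohormone thyroxine, which transporters such as the product of Slco1c1 carry across the blood-brain barrier in rodents. The deiodinase encoded by Dio2, which in rodent brain is found mainly in astrocytes and in tanycytes of the third ventricle, removes an iodine from thyroxine and so makes the active hormone triiodothyronine, while the enzyme encoded by Dio3 inactivates it. The active hormone binds nuclear receptors encoded by Thra and Thrb, which recruit corepressors without hormone and coactivators, CBP among them, with it. Klf9, a transcription factor, and Hr, a nuclear corepressor, are hormone-responsive genes in rodent brain.

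The arrays differed first by array set, a grouping found in the data; whether it reflects handling of the arrays or cohorts of mice was not tested. Differences between array sets made up 95.6%, and differences between groups 5.61%, of the leading principal component, itself 34.5% of all variance. From every TSA, novelty or vehicle-control group 1 array fell in each of sets 2, 3 and 4, and set 1 was the 4 naive arrays, so that set and the naive condition cannot be told apart; no label names the sets. Differences are therefore given from a limma fit without the sets and, where it bears on the value, from a fit with array set as a block, which compares arrays within a set. The 9 hippocampal neuron markers examined averaged 7.10 to 11.9, above the array medians of 5.46 to 5.63. Crebbp, the gene for CBP, ran from 8.97 to 9.77 (median 9.42, n = 14) in arrays labelled cbp+/- and from 8.68 to 9.70 (median 9.32, n = 14) in wild-type arrays. It was thus not lower in cbp+/-, and the sources used here do not give where its probes lie relative to the disrupted part; its level therefore does not check the genotype labels. In 3 arrays markers of choroid plexus, the tissue that secretes cerebrospinal fluid, averaged 1.31 to 1.70 above their medians over all arrays. These were wild-type novelty TSA replicate 1, cbp+/- standard housing TSA replicate 1 and cbp+/- control replicate 3, all of array set 2.

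The promoter window of Dio2 is shown because its levels ran with those of activity-induced genes, a likeness that shares the novelty contrast by which Dio2 was chosen. The windows of Klf9 and Slco1c1 are shown because these 2 members had the next largest novelty estimates within array sets. Each window runs 5′ to 3′ on the gene's strand, from 250 bases before to 50 bases after the start, as RefSeq gives it on GRCm38.p6: chr12:90738989-90739288 (minus strand) for Dio2, chr19:23140976-23141275 (plus strand) for Klf9 and chr6:141524104-141524403 (plus strand) for Slco1c1. Capitals mark matches to the cAMP response element TGACGTCA, its shorter core TGACG, the AP-1 site TGANTCA or the TATA box TATAAA, searched on both strands, as were the nuclear receptor motif AGGTCA and the GC box GGGCGG, which none of these 3 windows held.
Dio2: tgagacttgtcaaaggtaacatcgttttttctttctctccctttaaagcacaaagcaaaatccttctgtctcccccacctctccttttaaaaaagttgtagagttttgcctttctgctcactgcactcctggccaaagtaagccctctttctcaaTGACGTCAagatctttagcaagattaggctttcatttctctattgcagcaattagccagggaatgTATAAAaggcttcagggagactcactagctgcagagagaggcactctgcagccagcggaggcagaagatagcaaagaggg
Klf9: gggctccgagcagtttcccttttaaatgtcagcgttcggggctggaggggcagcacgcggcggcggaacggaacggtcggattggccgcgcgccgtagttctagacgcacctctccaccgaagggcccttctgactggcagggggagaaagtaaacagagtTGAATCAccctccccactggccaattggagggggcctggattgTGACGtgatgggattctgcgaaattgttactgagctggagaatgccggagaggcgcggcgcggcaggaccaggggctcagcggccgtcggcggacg
Slco1c1: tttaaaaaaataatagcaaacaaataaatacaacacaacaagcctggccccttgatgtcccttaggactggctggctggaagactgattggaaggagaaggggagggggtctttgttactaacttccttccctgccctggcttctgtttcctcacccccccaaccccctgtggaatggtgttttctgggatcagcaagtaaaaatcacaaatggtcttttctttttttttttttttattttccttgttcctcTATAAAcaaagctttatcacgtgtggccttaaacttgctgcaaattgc
The Dio2 window held a full TGACGTCA at position -95 from the start, which only 1.79% of the 32851 windows of all genes held, and a TATAAA at -30 (13.6% of windows). Both strands of the shorter core lie inside the full element. The Klf9 window held the shorter core TGACG at -46 (20.8% of windows) and a TGANTCA at -89 (7.81%). In the Slco1c1 window the only match was a TATAAA at base 2 after the start. Of the 6 genes, 4 had a window, and Thrb, which is not printed, had 2. The Thrb window at chr14:17660710-17661009 also held TGACG, at -56, with an AGGTCA at -184 (16.3% of all windows) and 3 matches to GGGCGG (35.7%), while the other held a TATAAA at -167. The GC content was 44.7% for Dio2, 63.3% for Klf9 and 42.0% for Slco1c1, against a median of 52.7% over all windows. A match describes the letters and does not show that a factor binds there.

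Dio2 was higher after novelty in every background. In cbp+/- mice given TSA, the novelty arrays of sets 2, 3 and 4 were at 8.30, 7.995 and 7.988, against 7.51, 7.39 and 7.31 in standard housing. In wild-type mice given TSA they were at 8.31, 8.28 and 8.07, against 7.71, 7.26 and 7.30 in standard housing. Without TSA, the cbp+/- novelty arrays were at 8.48, 7.74 and 7.79, against 7.79, 7.14 and 7.33 in the vehicle controls of the same sets and 7.30 and 7.34 in the naive controls. The wild-type novelty arrays without TSA were at 8.65, 8.003 and 8.10, against 7.80, 7.33 and 7.36 in vehicle controls and 7.79 and 7.57 in naive controls. Within each array set, all 4 novelty arrays lay above all 4 standard housing arrays. Across sets the ranges overlapped, since the cbp+/- novelty arrays of sets 3 and 4 lay below the wild-type vehicle control of set 2.

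**Figure D1:**
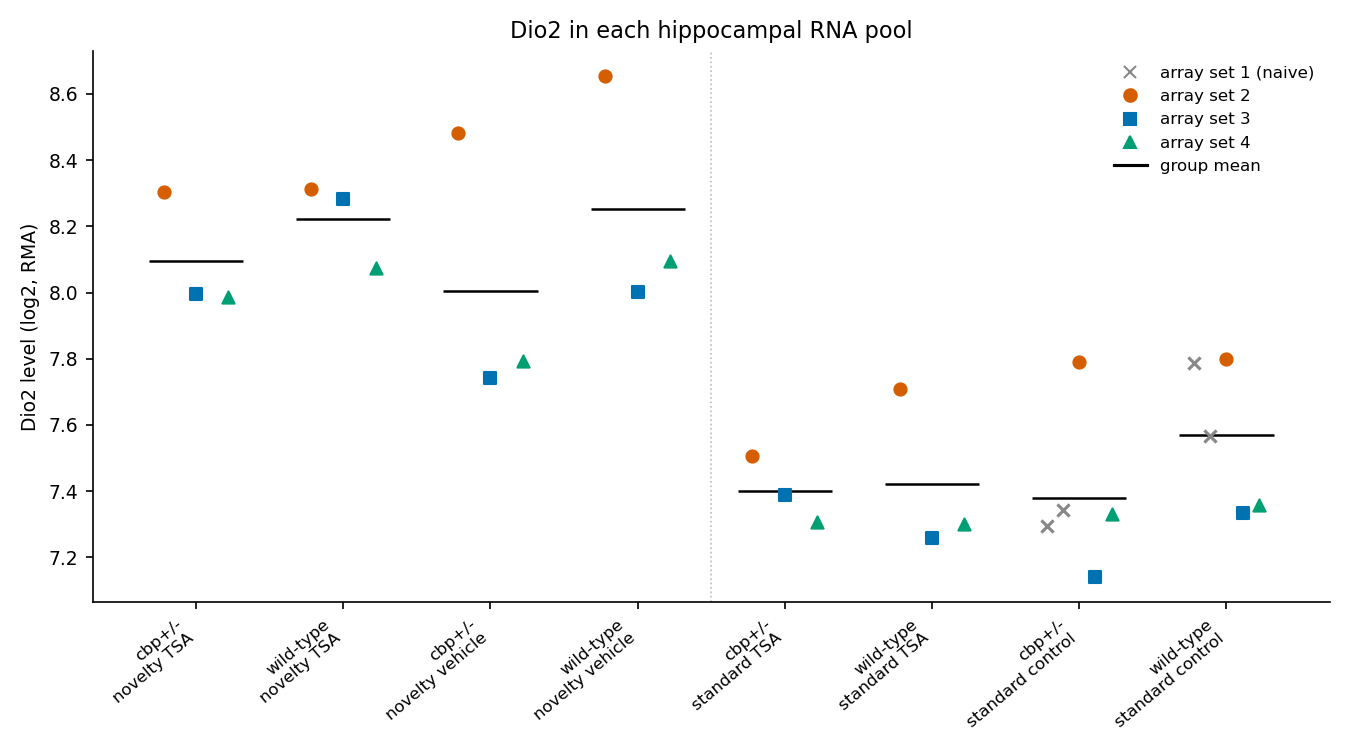
Dio2 level (log2, vertical axis) in each of the 28 hippocampal RNA pools by group, with colours and shapes for array sets 1 to 4 and lines for group means. Group means were 8.01 to 8.25 for the 4 novelty groups on the left and 7.38 to 7.57 for the 4 standard housing groups on the right, and array set 2 was the highest set in each of the 8 groups.

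Ordered by level, the group means of Dio2 were 8.25 ± 0.35 after novelty in wild type, 8.22 ± 0.13 after novelty and TSA in wild type, 8.10 ± 0.18 after novelty and TSA in cbp+/- and 8.01 ± 0.41 after novelty in cbp+/- (SD, n = 3 each). The standard housing groups followed, with 7.57 ± 0.22 in wild-type controls (n = 5), 7.42 ± 0.25 after TSA in wild type (n = 3), 7.40 ± 0.10 after TSA in cbp+/- (n = 3) and 7.38 ± 0.24 in cbp+/- controls (SD, n = 5). Neighbours among the 4 novelty groups, and among the 4 standard housing groups, differed by less than the larger of their SDs. The only step in this order larger than both SDs lay between the novelty and the standard housing groups, and even there single arrays overlapped across sets.

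The size of the Dio2 difference was alike in the 4 backgrounds. Without the block, novelty minus standard housing was 0.69 ± 0.20 (SE) in cbp+/- mice given TSA, 0.80 ± 0.20 in wild-type mice given TSA, 0.63 ± 0.18 in cbp+/- mice without TSA and 0.68 ± 0.18 in wild-type mice without TSA. Averaged over these, it was 0.70 ± 0.09, or 1.63-fold, and with array set as a block 0.71 ± 0.05. Dio2 ranked 13 of 19938 genes by this averaged difference without the block, between Gadd45b at 0.71 and Mir212 at 0.66, and 11 with the block, between Snord14e at 0.75 and Egr4 at 0.67. Within the sets it was higher after novelty in 12 of 12 pairs, by 0.46 to 1.03, as were 0.381% of all genes. The share of genes called by limma (adjusted p under 0.05) was 0.191% for averaged novelty without the block and 0.476% with it; nothing about Dio2 is read from these shares, since the same contrast chose it. In bulk tissue, more RNA per cell and more cells of a type cannot be told apart.

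Markers of astrocytes and tanycytes, the cell types in which Dio2 is mainly found, are given beside its novelty difference; 52.6% of all genes had a positive novelty estimate, and 50.9% with the block. Of the 10 astrocyte markers, 5 had a positive novelty estimate (median 0.01) and 4 with the block (median -0.01), and 0 were called in either fit. Their mean deviation from each marker's median over all arrays ran from -0.40 to 0.20 in novelty arrays. In standard housing arrays it ran from -0.26 to 0.19. Of the 7 ependymal and tanycyte markers, 4 had a positive estimate (median 0.0011) and 1 with the block (median -0.02), and 0 were called. All but Ccdc153, at 6.25, averaged 3.65 to 5.40, below the array medians of 5.46 to 5.63. At such low levels these markers cannot show whether tanycytes changed. All 10 markers of the meninges, the membranes around the brain, had a negative novelty estimate (median -0.13, and -0.11 with the block), with 0 called. The mean deviation of the meningeal markers ran from -0.20 to 0.07 in novelty arrays and from -0.05 to 0.23 in standard housing arrays, and the part of these markers in the Dio2 values was not tested.

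The novelty difference of Dio2 was not detectably altered by genotype or by TSA. The difference in cbp+/- minus that in wild type, without TSA, was -0.06 ± 0.25 (95% interval -0.57 to 0.46, limma adjusted p = 1), and -0.06 ± 0.14 with the block (-0.34 to 0.23, adjusted p = 1). The lower bound of the interval without the block, -0.57, stands beside a novelty difference of 0.68 in wild type. The difference under TSA minus that without TSA, over genotypes, was 0.09 ± 0.19 (95% interval -0.29 to 0.48, limma adjusted p = 1), and 0.08 ± 0.11 with the block (-0.15 to 0.30). For both interactions, and for that of genotype with TSA, limma called 0% of the 19938 genes in both fits. At an unadjusted p under 0.05 they gave 201, 247 and 461 genes without the block and 851, 565 and 1613 with it.

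TSA itself left Dio2 near its level without TSA. Over all backgrounds the 12 TSA arrays ran from 7.26 to 8.31 (median 7.85) and the 16 arrays without TSA from 7.14 to 8.65 (median 7.76). The averaged difference was -0.02 ± 0.09 (95% interval -0.21 to 0.18, limma adjusted p = 0.997), and -0.01 ± 0.05 with the block (-0.12 to 0.10, adjusted p = 0.97). Within sets it was lower after TSA in 8 of 12 pairs. The difference after TSA in cbp+/- minus that in wild type was 0.14 ± 0.19, and 0.14 ± 0.10 with the block (adjusted p = 0.69).

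Dio2 was lower in most cbp+/- arrays than in their wild-type counterparts, by an amount that did not pass the test. The 14 cbp+/- arrays ran from 7.14 to 8.48 (median 7.62) and the 14 wild-type arrays from 7.26 to 8.65 (median 7.79). The averaged difference was -0.15 ± 0.09 (95% interval -0.34 to 0.05, limma adjusted p = 1), and -0.15 ± 0.05 with the block (-0.25 to -0.04, adjusted p = 0.22). Leaving out 1 array at a time moved the value without the block to between -0.21 and -0.10. Within sets it was lower in cbp+/- in 10 of 12 pairs, and 3.91% of all genes were lower in at least 10. Averaged over conditions, limma called 0% of genes for genotype without the block (518 at an unadjusted p under 0.05) and 0.662% with it. Between control groups, the vehicle minus naive difference of Dio2 was -0.04 ± 0.16 (adjusted p = 0.96), in a comparison in which 2.41% of genes were called and in which injection and array set cannot be told apart.

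The genes whose pattern across the 28 arrays was most like that of Dio2 were genes of the neuronal activity response. By Pearson correlation of log2 values less their array-set means, the 10 most like it were Fosb (r = 0.93), Arc (0.91), Npas4 (0.91), Egr2 (0.90), Nr4a1 (0.89), Fos (0.89), Inhba (0.85), Nr4a2 (0.85), Egr1 (0.84) and Pcsk1 (0.83). Fosb, Npas4, Egr2, Nr4a1, Fos, Nr4a2 and Egr1 encode transcription factors, Arc a synaptic cytoskeletal protein, Inhba an activin subunit and Pcsk1 a prohormone convertase. The points share the contrast by which Dio2 was chosen: with the group means also removed, r ran from -0.29 for Nr4a2 to 0.43 for Fosb. Of the 10, 8 had a promoter window, 7 of these held TGACG and 1, Pcsk1, held the full TGACGTCA that the Dio2 window holds. Of single windows of all genes, 20.8% held TGACG and 1.79% held TGACGTCA. These shares are not like for like, since a gene was counted if any of its windows matched, and Egr2 had 5. What regulates these genes was not tested.

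Npas4, Fos and Arc, which are induced within minutes to an hour of neuronal activity, showed the novelty response on the same arrays. Averaged over backgrounds, Npas4 rose by 1.73 ± 0.12, Fos by 1.42 ± 0.11 and Arc by 1.36 ± 0.17 (limma adjusted p = 1.16e-08, 2.01e-08 and 8.7e-05, in that order). All 3 were higher after novelty in 12 of 12 within-set pairs. The lowest within-set difference of Npas4, 1.09, was above the highest of Dio2, 1.03, while the lowest of Fos was 0.64 and that of Arc 0.92. After TSA, with array set as a block, Arc fell by 0.22 ± 0.06 on the log2 scale (adjusted p = 0.0494), and the values of Npas4 and Fos were -0.20 ± 0.06 (adjusted p = 0.0605) and -0.26 ± 0.09 (adjusted p = 0.14). In the fit without the block the Arc value was -0.04 ± 0.17 (adjusted p = 1).

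**Figure D2:**
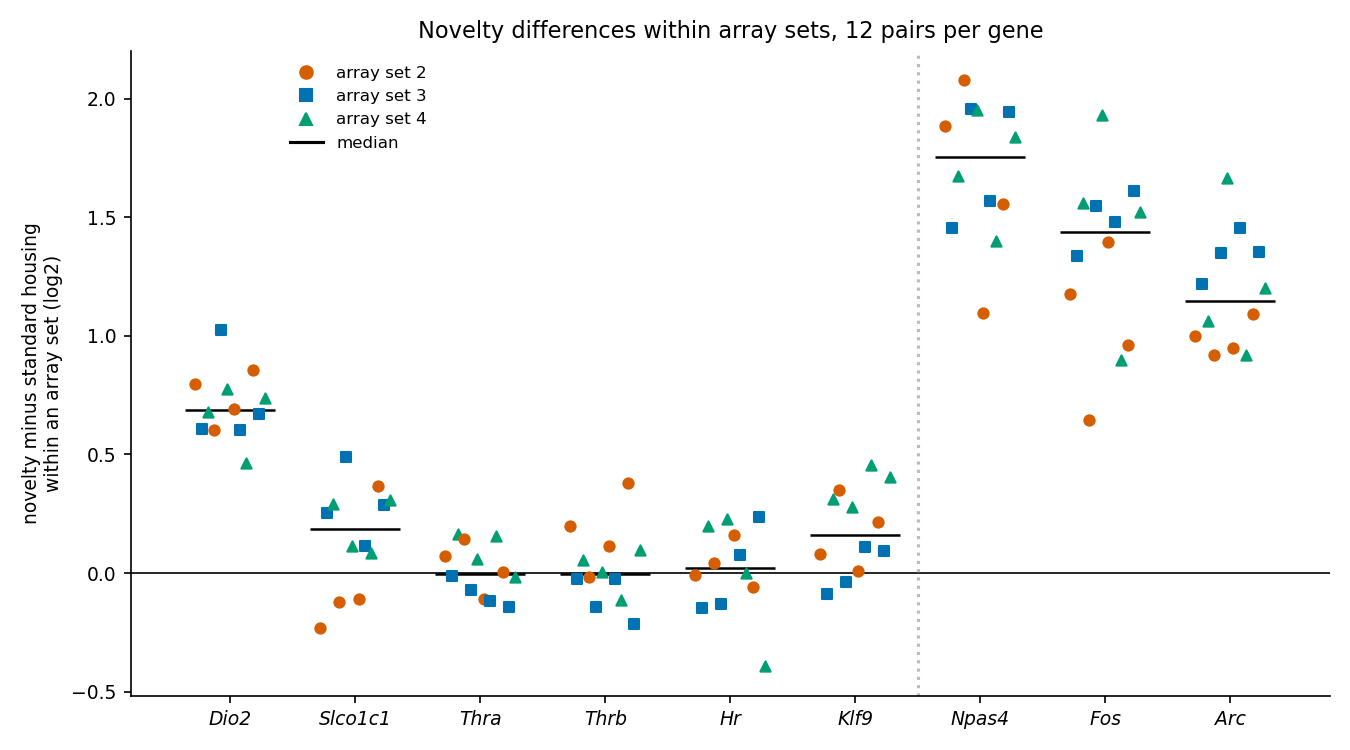
Novelty minus standard housing within array sets 2, 3 and 4 (log2 difference, vertical axis) for the 6 thyroid hormone genes and for Npas4, Fos and Arc, with 12 pairs per gene and a line at the median. The Dio2 pairs lie between 0.46 and 1.03, all above 0, and those of Thra, Thrb and Hr lie on both sides of 0.

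Slco1c1, the thyroxine transporter, was higher after novelty in all pairs of array sets 3 and 4 but lower in 3 of the 4 pairs of set 2. In cbp+/- mice given TSA, its novelty arrays of sets 2, 3 and 4 were at 7.93, 8.25 and 8.28, against 8.16, 8.003 and 7.99 in standard housing. In wild-type mice given TSA they were at 8.02, 8.22 and 8.41, against 8.14, 7.73 and 8.29. The set 2 array was lower after novelty in both genotypes under TSA, and the arrays of sets 3 and 4 were higher. Without TSA, the cbp+/- novelty arrays were at 7.98, 8.30 and 8.29, against 8.09, 8.18 and 8.20 in vehicle controls. In wild type without TSA they were at 8.22, 8.36 and 8.38, against 7.85, 8.07 and 8.07 in vehicle controls, higher in all 3 sets. Its naive controls were the highest controls, at 8.36 and 8.20 in cbp+/- and 8.51 and 8.37 in wild type, so the groups overlapped.

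The averaged novelty difference of Slco1c1 was 0.10 ± 0.07 (limma adjusted p = 1), and 0.15 ± 0.06 with the block (95% interval 0.03 to 0.27, adjusted p = 0.41), so it did not pass the test. It was higher after novelty in 9 of 12 pairs, and 9.15% of all genes were higher in at least 9. Vehicle controls lay below naive controls, at 7.85 to 8.20 (median 8.08, n = 6) against 8.20 to 8.51 (n = 4), a difference of -0.28 ± 0.11 (adjusted p = 0.19). Injection and array set cannot be told apart in that difference. After TSA the averaged difference was -0.10 ± 0.07 (adjusted p = 0.82), and in cbp+/- it was -0.04 ± 0.07 (adjusted p = 1). Of 8 measured endothelial markers, cells of the barrier in which this transporter is found in rodents, 2 had a positive novelty estimate (median -0.10, and -0.06 with the block), with 0 called. Of all genes, 52.6% were positive, and 50.9% with the block. The marker estimates ran from -0.18 in Tek to 0.46 in Slc2a1, and with the block from -0.12 in Cdh5 to 0.28 in Slc2a1. In each fit 2 of the 8 had an unadjusted p under 0.05, beside 639 and 1637 of all 19938 genes. The genes most like Slco1c1 were Pigk (r = 0.75), Cpsf6 (0.73) and Mest (0.73) over the 28 arrays.

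Thra and Thrb, the hormone receptors, followed the array sets far more than the groups. Thra ran from 11.00 to 11.21 in set 2, from 10.81 to 11.03 in set 3 and from 10.50 to 10.73 in set 4 (n = 8 each), and from 10.42 to 10.54 in the naive arrays of set 1 (n = 4). Every array of sets 2 and 3 lay above every array of sets 1 and 4. Group means of Thra lay between 10.70 and 10.92, with SDs of 0.14 to 0.33. Thrb ran from 6.94 to 7.44 in set 2, from 6.88 to 7.12 in set 3 and from 6.64 to 6.88 in set 4, with group means between 6.86 and 7.08 and SDs of 0.12 to 0.32. No neighbouring pair of groups in either gene's order differed beyond these SDs. Array set accounted for 92.9% of the variance of Thra and 68.7% of that of Thrb, against 8.97% and 13.3% for group. The median over all genes was 43.8% for array set and 18.3% for group, and the 2 shares are not additive because the naive arrays are a set of their own.

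The novelty difference of Thra was 0.09 ± 0.10 without the block and 0.01 ± 0.04 with it (95% interval -0.07 to 0.09, limma adjusted p = 0.98). For Thrb it was 0.01 ± 0.07, and 0.03 ± 0.04 with the block (-0.06 to 0.12, adjusted p = 0.96). Each was higher after novelty in 6 of 12 pairs. The TSA differences were 0.09 ± 0.10 for Thra and -0.06 ± 0.07 for Thrb, and with the block 0.0028 ± 0.04 for Thra (adjusted p = 0.99) and -0.04 ± 0.04 for Thrb (adjusted p = 0.75). In cbp+/- the difference was -0.03 ± 0.10 for Thra (adjusted p = 1) and -0.10 ± 0.07 for Thrb (adjusted p = 1), and -0.10 ± 0.04 for Thrb with the block (adjusted p = 0.32). Thrb was lower in cbp+/- in 10 of 12 pairs, against the 3.91% of genes that were lower in at least 10. Vehicle controls lay above naive controls for Thra, at 10.57 to 11.14 against 10.42 to 10.54, by 0.42 ± 0.16 (adjusted p = 0.19). In that comparison injection and array set cannot be told apart. The Thra cluster gives 1 value and does not separate the hormone-binding receptor from the variant that does not bind hormone. Most like Thra were Pacs2 (r = 0.79), Fam117b (0.75) and Zfp827 (0.72), and most like Thrb were Papss2 (0.73), Xdh (0.72) and Cyp4f15 (0.71).

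Klf9, a hormone-responsive transcription factor, had the largest novelty estimate among the 5 members other than Dio2. In cbp+/- mice given TSA, its novelty arrays of sets 2, 3 and 4 were at 9.56, 8.78 and 8.81, against 9.48, 8.87 and 8.498 in standard housing. In wild-type mice given TSA they were at 9.53, 8.71 and 9.02, against 9.18, 8.75 and 8.74. In both, the set 3 array was slightly lower after novelty and the others were higher. Without TSA, the cbp+/- novelty arrays were at 9.44, 8.87 and 8.89, against 9.43, 8.76 and 8.44 in vehicle controls and 8.74 and 8.61 in naive controls. The wild-type novelty arrays without TSA were at 9.62, 8.94 and 9.12, against 9.40, 8.84 and 8.71 in vehicle controls and 8.77 and 8.76 in naive controls. Set 2 was the highest set in all 8 groups, at 9.18 to 9.62, and the ranges of novelty and standard housing arrays overlapped.

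The averaged novelty difference of Klf9 was 0.22 ± 0.13 (95% interval -0.05 to 0.50, limma adjusted p = 1), and 0.18 ± 0.05 with the block (0.08 to 0.29, adjusted p = 0.15), so it did not pass the test in either fit. It was higher after novelty in 10 of 12 pairs, as were, in at least 10, 3.32% of all genes. By background the values with the block were 0.10 ± 0.10 in cbp+/- with TSA, 0.20 ± 0.10 in wild type with TSA, 0.19 ± 0.10 in cbp+/- and 0.24 ± 0.10 in wild type, with adjusted p of 0.77 to 1. The TSA difference was -0.0025 ± 0.13 (adjusted p = 0.999) and the cbp+/- difference -0.06 ± 0.13 (adjusted p = 1). Klf9 is also induced by glucocorticoids in rodent neurons. All 9 measured genes of a glucocorticoid-response list, which does not hold Klf9, had a positive novelty estimate (median 0.28, and 0.22 with the block). Of all genes, 52.6% were positive, and 50.9% with the block. Without the block 0 of the 9 were called, beside 0.191% of all genes, and with it 2, beside 0.476%. These were Per1 at 0.30 ± 0.07 (limma adjusted p = 0.0476) and Errfi1 at 0.36 ± 0.06 (adjusted p = 0.000482), both of which neuronal activity also induces. The mean deviation of the 9 genes ran from -0.09 to 0.47 in novelty arrays and from -0.54 to 0.30 in standard housing arrays. The part of these 9 genes in the Klf9 values was not tested. Over the 28 arrays less set means, Klf9 was most like Lrrc8b (r = 0.85), Opa3 (0.84) and Bhlhe40 (0.83), and its r with Dio2 was 0.56.

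Hr, the hormone-responsive corepressor, did not differ detectably in any comparison. Its group means lay between 5.57 ± 0.20 in wild-type controls (SD, n = 5) and 5.74 ± 0.16 after novelty and TSA in wild type (n = 3), close to the array medians and within the SDs of 0.12 to 0.35. The novelty difference was 0.03 ± 0.09, and 0.02 ± 0.06 with the block (95% interval -0.11 to 0.14, limma adjusted p = 0.98). The TSA difference was 0.05 ± 0.09 (adjusted p = 0.98) and the cbp+/- difference -0.03 ± 0.09 (adjusted p = 1). Array set accounted for 55.7% of its variance and group for 5.59%. The genes most like Hr were Prrxl1 (r = 0.80), Igfn1 (0.80) and Tgm1 (0.78).

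**Figure D3:**
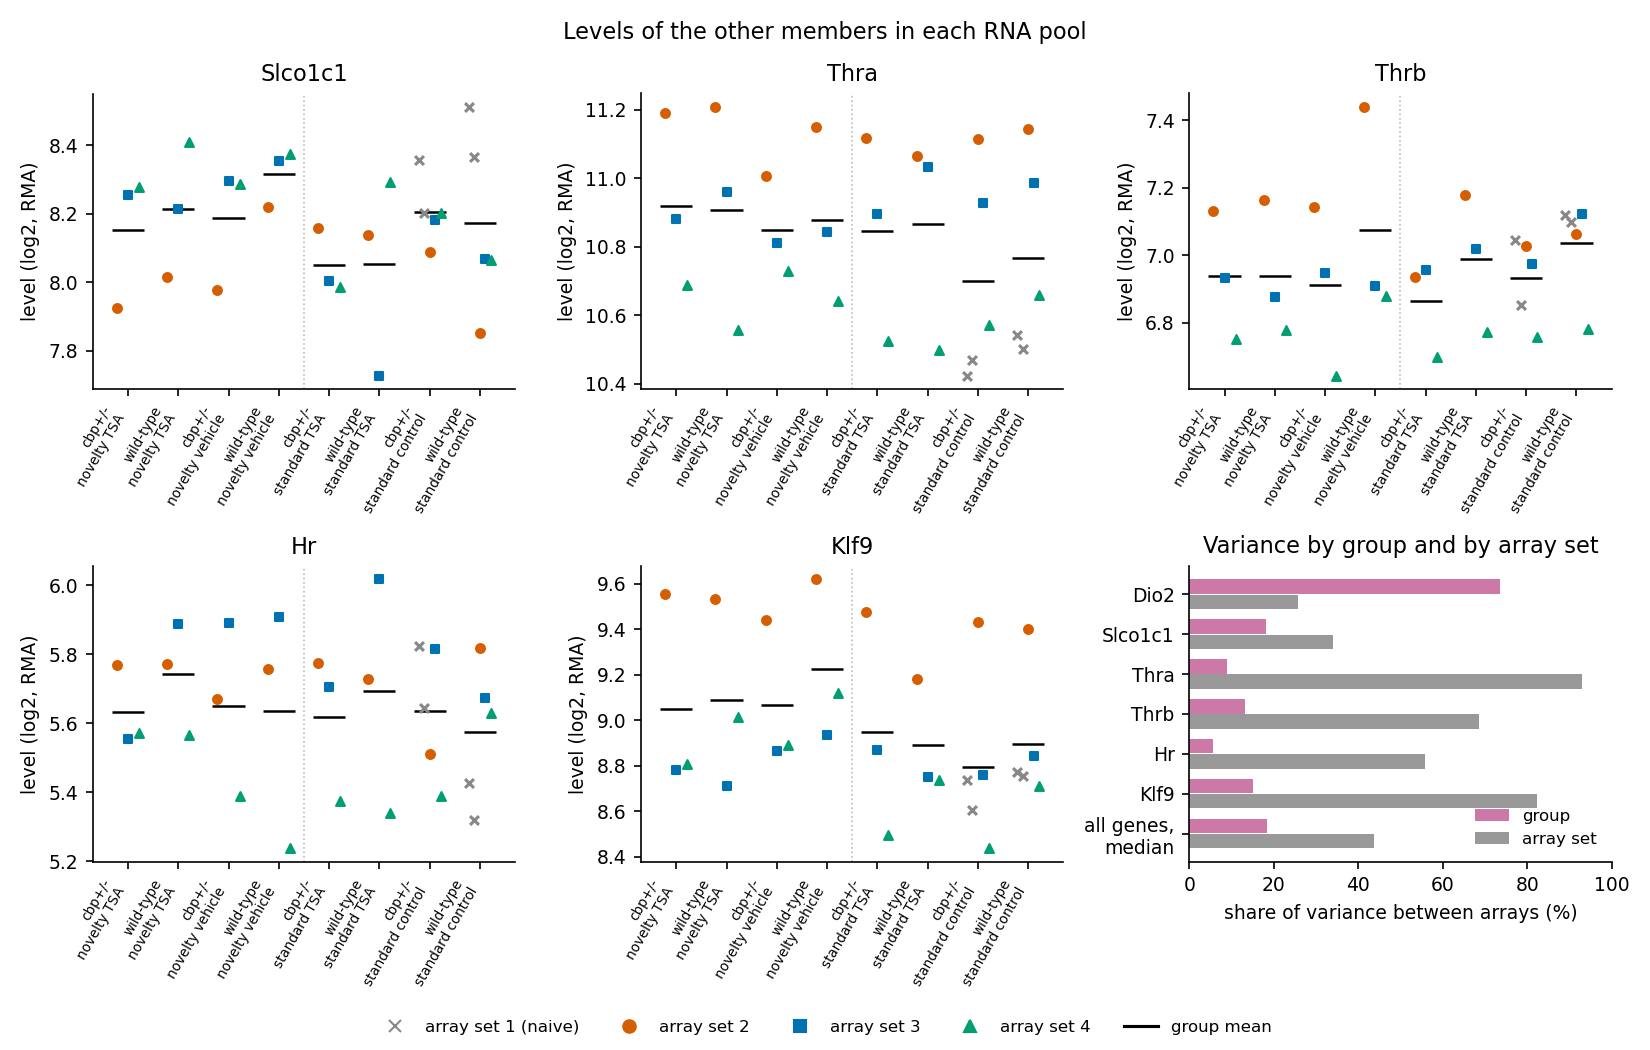
Levels (log2) of Slco1c1, Thra, Thrb, Hr and Klf9 in each RNA pool by group, with array sets as colours and shapes and group means as lines, and, in the last panel, the percentage of each gene's variance between arrays that group and array set account for. Group accounts for 73.4% of the variance of Dio2, which was chosen for its novelty rise, so nothing is read from this share. For the other 5 genes it accounts for 5.59% to 18.2%, against a median of 18.3% over all genes.

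Of the 5 members other than Dio2, limma called 0 in the comparisons of novelty, TSA, genotype or their interactions, with or without the block. For injection, fitted without the block only, it also called 0 of them, beside 2.41% of all genes. Dio2 was not called where it was tested. Of all genes, the averaged comparisons called 0.191% for novelty, 0.662% for TSA and 0% for genotype. With the block these shares were 0.476%, 4.51% and 0.662%, and the interactions called 0% in both fits. At such shares, 0 calls among 5 genes do not set them apart from all genes. For novelty by background, limma called 0.01% of genes in cbp+/- with TSA, 0.01% in wild type with TSA, 0.0251% in cbp+/- and 0.0351% in wild type, and with the block 0.0451%, 0.1%, 0.0853% and 0.11%, in the same order. For TSA by background 0% were called without the block. At an unadjusted p under 0.05 these TSA comparisons gave 355 genes after novelty in cbp+/-, 649 in wild type after novelty, 488 in cbp+/- in standard housing and 1030 in wild type in standard housing. With the block the called shares were 0.0201%, 0.0702%, 0.0251% and 0.0401%, in that order. For cbp+/- minus wild type within a condition the called share was 0% in all 4 conditions without the block, with 203 to 330 genes at an unadjusted p under 0.05. With the block it was 0.00502% after novelty with vehicle and 0% in the other 3 conditions, with 826 to 1568 genes at an unadjusted p under 0.05. Novelty and TSA comparisons in standard housing share control arrays, so their values are not independent.

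**Figure D4:**
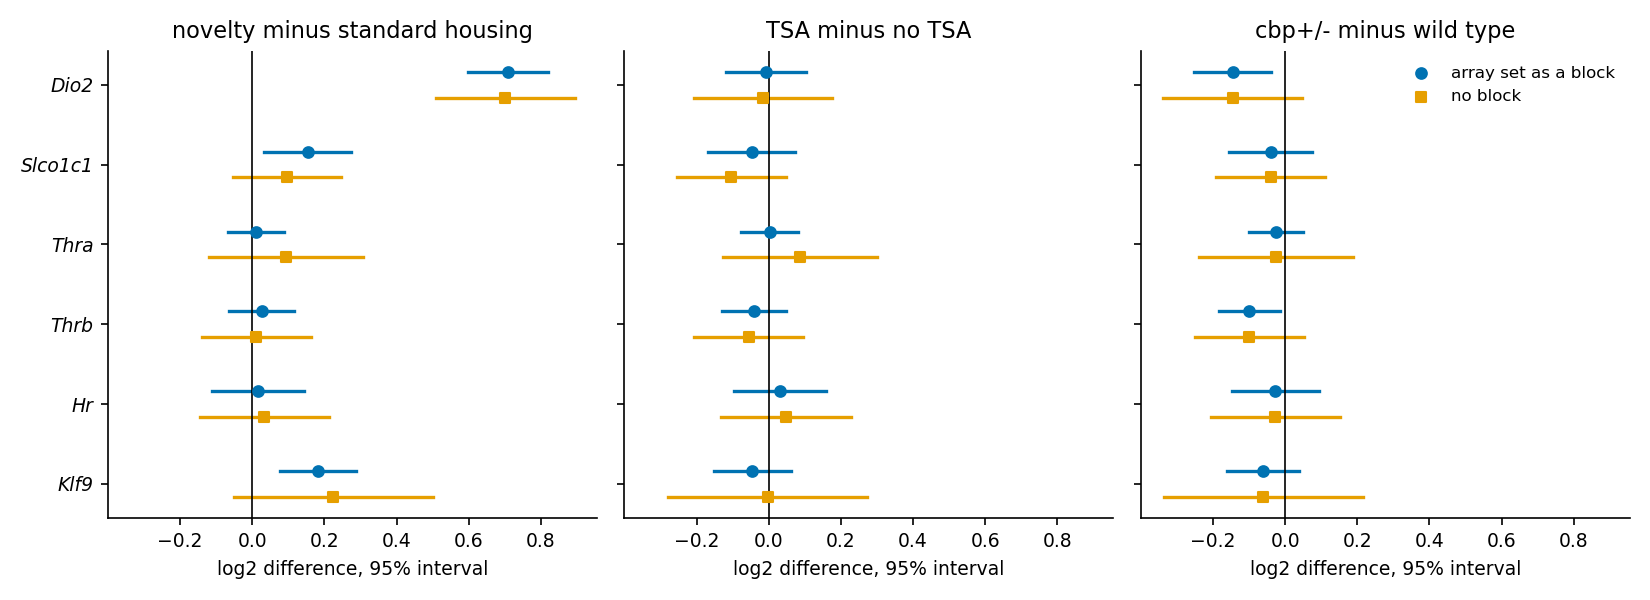
Averaged differences of the 6 genes (log2, horizontal axes, with 95% intervals) for novelty minus standard housing, TSA minus no TSA and cbp+/- minus wild type, from the fits with array set as a block (circles) and without it (squares). Dio2 stands at 0.71 and 0.70 for novelty, and all other estimates in the 3 panels, those of Dio2 for TSA and cbp+/- among them, lie between -0.15 and 0.22.

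The wider pathway list held 48 genes of hormone metabolism, transport, receptors, corepressors, coactivators and targets, of which 44 were analysed here. For averaged novelty, 0 of the 43 genes other than Dio2 were called in either fit. Of all genes, 0.191% were called without the block and 0.476% with it. At such low shares, 0 calls do not set the 43 genes apart from all genes. At an unadjusted p under 0.05, 1 of the 43 passed without the block, Shh at -0.12 ± 0.06. With the block 6 passed, Klf9 and Slco1c1 among them. Of all 19938 genes, 639 passed without the block and 1637 with it. Without the block 31 of the 43 had a positive estimate, with a median of 0.04, against 52.6% of all genes and a median of 0.0036, and with the block 27 were positive, with a median of 0.02, against 50.9% of all genes. Dio3, the inactivating deiodinase, had a novelty difference of -0.10 ± 0.08 with the block (limma adjusted p = 0.84). Slc16a10, a transporter of aromatic amino acids and thyroid hormone, was at -0.13 ± 0.05 (adjusted p = 0.45). Ttr, the thyroxine carrier protein made by choroid plexus, had an SE of 0.59 with the block, the widest of the list, around an estimate of 0.41. Dio3, Shh and Slc16a10 averaged 5.03, 5.27 and 4.91, below the array medians of 5.46 to 5.63. Dio3, Ttr and Shh were chosen for mention after their values were seen.

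**Figure D5:**
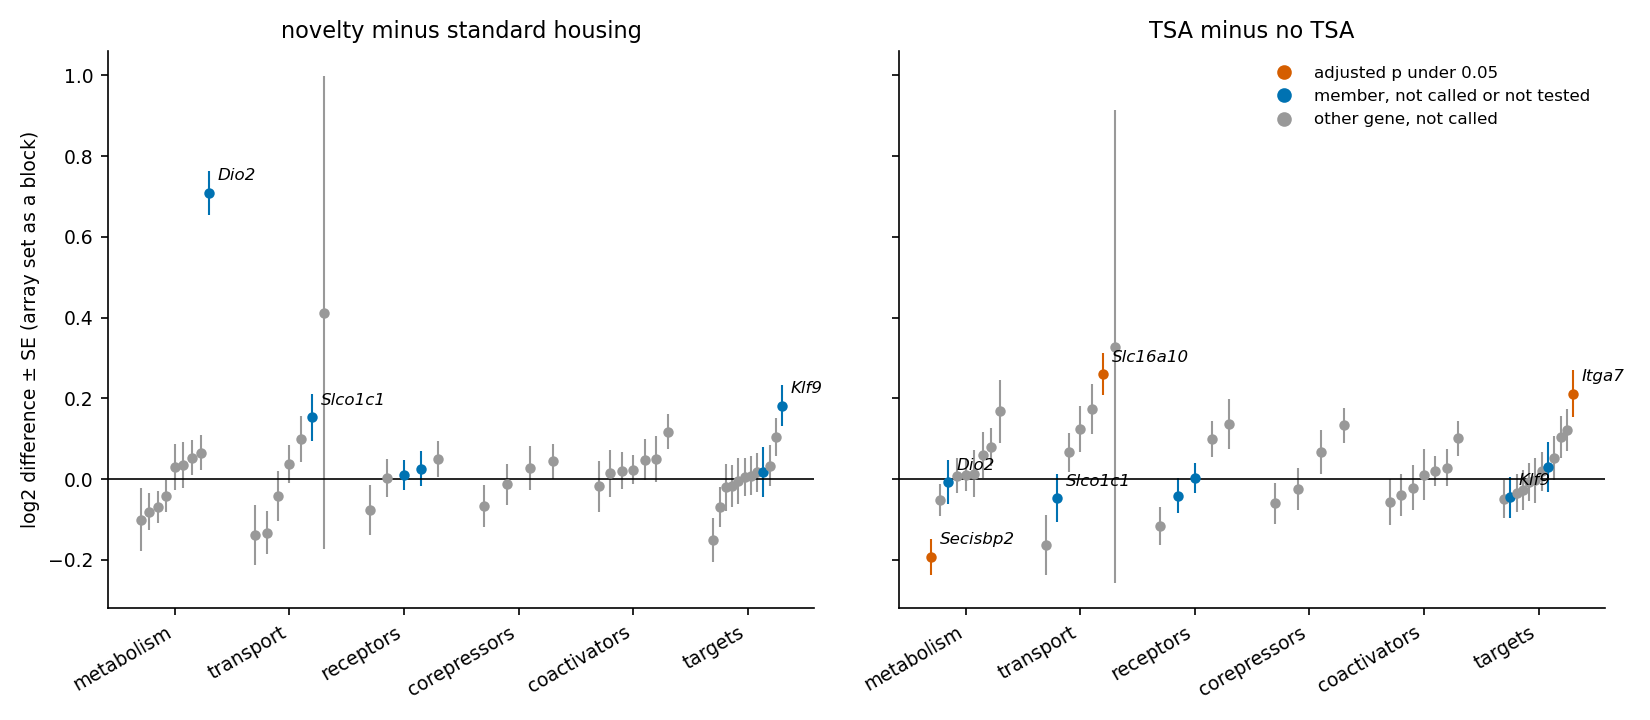
Differences for the 44 measured pathway genes (log2 ± SE, array set as a block) after novelty and after TSA, in 6 groups by role, ordered by size within each group. Dio2 stands apart at 0.71 on the left, and Slc16a10 at 0.26, Itga7 at 0.21 and Secisbp2 at -0.19 are the 3 genes past the threshold on the right.

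After TSA, the fit without the block called 0 of the 44 pathway genes, beside 0.662% of all genes, and the fit with array set as a block called 3, beside 4.51% of all genes, a share near that background. With array set as a block, Slc16a10 rose by 0.26 ± 0.05 (limma adjusted p = 0.00436), Itga7, an integrin subunit listed as a hormone target, rose by 0.21 ± 0.06 (adjusted p = 0.0346), and Secisbp2 fell by 0.19 ± 0.04 on the log2 scale (adjusted p = 0.0106). Secisbp2 encodes a factor needed to insert selenocysteine into selenoproteins, the deiodinases among them. Slc16a10 averaged 4.91 over the arrays, below the array medians of 5.46 to 5.63, so its value is that of a low signal. Without the block the values were 0.24 ± 0.08 for Slc16a10 (adjusted p = 0.27), 0.21 ± 0.07 for Itga7 (adjusted p = 0.3) and -0.22 ± 0.05 for Secisbp2 (adjusted p = 0.0514). At an unadjusted p under 0.05 this fit gave 6 of the 43 genes other than Dio2 and 1740 of all 19938 genes. With the replicate numbers of the labels as a replicate block, 4 pathway genes were called, Secisbp2 and 3 others (Crym, Slco1a4 and Thrsp), while Slc16a10 and Itga7 were not.

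Secisbp2 ran from 5.70 to 6.15 (median 5.98) in the 12 TSA arrays and from 5.9999 to 6.47 (median 6.13) in the 16 arrays without TSA. It was lower after TSA in 12 of 12 within-set pairs, as were 0.411% of all genes. Slc16a10 ran from 4.68 to 5.44 (median 5.14) in TSA arrays and from 4.47 to 5.09 (median 4.85) without TSA, whereas Itga7 ran from 6.03 to 6.72 (median 6.39) in TSA arrays and from 5.86 to 6.66 (median 6.17) without TSA. Both genes were higher after TSA in 10 of 12 pairs, and 6.78% of all genes were higher in at least 10, and the ranges of all 3 genes overlapped. These 3 genes were named because the same arrays passed the threshold within sets. Their pair counts therefore describe those calls and add no separate support. By background, the Secisbp2 difference with the block was -0.30 ± 0.09 after novelty in cbp+/-, -0.12 ± 0.09 in wild type after novelty, -0.26 ± 0.08 in cbp+/- in standard housing and -0.10 ± 0.08 in wild type in standard housing, with adjusted p of 0.35 to 0.82. Of 11 choroid plexus markers, 11 had a positive TSA estimate (median 0.14) and 10 with the block (median 0.13), against 53.9% and 51.7% of all genes, with 0 called by limma and 0 at an unadjusted p under 0.05 in either fit. Their mean deviation had a median of -0.03 in TSA arrays, 2 of which were among the 3 arrays with raised markers, and of -0.07 in arrays without TSA. Without the 3 arrays in which those markers were raised, and without the block, the Secisbp2 value was -0.21 ± 0.05 (adjusted p = 0.0949).

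For genotype, limma called 0 of the 44 pathway genes in either fit, beside 0% of all genes without the block and 0.662% with it. At an unadjusted p under 0.05, 1 of the 43 other than Dio2 passed without the block, Rxrg at -0.15 ± 0.06. With the block 13 of the 43 passed. Of all 19938 genes, 518 passed without the block and 2365 with it. With the block the share was larger among the 43 than among all genes, and the list as a whole was not tested. Without the block 15 of those 43 had a positive estimate, with a median of -0.03, against 46.2% of all genes and a median of -0.0052. Of the 12 measured hormone targets, 11 had a negative estimate in cbp+/- and 1, Reln, a positive one of 0.03, with a median of -0.10 and the lowest value, -0.17, in Rasd2. Each array set holds both genotypes equally, so the block leaves every averaged genotype estimate unchanged and alters only its error. With the block 6 of the 12 had an unadjusted p under 0.05. Positive estimates without the block numbered 5 of 9 in metabolism, 4 of 7 in transport and 3 of 7 in coactivators. They numbered 1 of 5 in receptors and 1 of 4 in corepressors. Beyond the pathway they numbered 2 of 10 in astrocyte, 2 of 9 in hippocampal neuron and 1 of 9 in glucocorticoid-response genes. The count was 2 of 7 in oligodendrocyte and 8 of 11 in choroid plexus markers. It was 7 of 10 in meningeal, 5 of 8 in endothelial and 5 of 7 in ependymal and tanycyte markers. Between vehicle and naive controls 2 of the 44 genes were called, in a comparison with 2.41% of all genes called. Injection and array set cannot be told apart there. Wsb1 and Usp33, which encode proteins that add ubiquitin to the Dio2 enzyme or remove it, were lower in vehicle than in naive controls, with differences of -0.59 ± 0.14 (limma adjusted p = 0.0299) and -0.32 ± 0.08 (adjusted p = 0.0357). Rxrg averaged 4.85, below the array medians of 5.46 to 5.63. Rxrg, Reln, Rasd2, Wsb1 and Usp33 were chosen for mention after their values were seen.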

How the data were processed

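Hippocampal RNA of wild-type and cbp+/- mice was hybridised to 28 Affymetrix Mouse Gene 1.0 ST arrays, 1 RNA pool per array, in 8 groups taken from the sample titles. The deposited values are log2 expression values, 1 per transcript cluster and array; the authors used GeneSpring GX 11, per the labels' protocols, and RMA, which corrects background, normalizes arrays to each other and sums probes, per the submitters' processing notes. Neither the version of RMA nor the build of the annotation is stated in those sources. Such values cannot show a change common to most transcripts.

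Of 35556 transcript clusters, 21789 had 1 gene symbol in the platform's gene table, 1621 had several and 12146 had none. For the 999 genes with more clusters the one with the highest mean was kept, which left 19938 genes, and the RefSeq table changed 0 symbols. Some listed genes are not reported here. The 28 arrays entered a single limma fit (limma 3.58.1, R 4.3.3) with a mean for each group, two-sided tests and Benjamini-Hochberg adjustment over all 19938 genes within each comparison (threshold 0.05). Vehicle and naive controls were compared in a fit with these as separate groups. P-values measure the spread between pools, and the number of arrays limits the precision.

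The 6 members, the lists and the naming rule were chosen with earlier results of these data known. The rule named the 6 members, the pathway genes past the threshold in an averaged comparison in either fit, the 10 genes most like Dio2 and the 3 most like each other member, and Npas4, Fos and Arc. Cell-type and glucocorticoid lists are described by counts and medians and, in some, by single genes. Markers of oligodendrocytes had a median novelty estimate of -0.04, and -0.12 with the block. In either fit 0 of the 7 were called, beside 0.191% of all genes without the block and 0.476% with it. At an unadjusted limma p under 0.05, 1 of the 7 passed without the block and 2 with it, beside 639 and 1637 of all 19938 genes. With the block their estimates ran from -0.37 in Opalin to 0.06 in Mobp.

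Deviations from group means correlated at 0.52 to 0.80 between same-numbered TSA and novelty arrays (45 pairs) and at -0.62 to -0.07 between other numbers. Controls did not follow these numbers (-0.58 to 0.23 with same-numbered arrays), whereas the correlation of vehicle controls 3, 4 and 5 with the other groups' replicates 1, 2 and 3 was 0.41 to 0.74. This pattern defined array sets 2 to 4, with the naive arrays as set 1. The median residual SD was 0.126 with the set as a block and 0.184 without it; since the sets came from the tested values, the fit without the block is the main one. Alternatives were the replicate numbers or array sets as a block, vehicle controls only, array quality weights, repeated quantile normalization, an intensity trend, removal of dim genes, cluster means, removal of the 3 arrays whose choroid plexus markers deviated by over 0.9 on average, and leaving out each array or set.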

Additional observations from a re-analysis of the deposited data

Results flagged for a closer look

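Chance flags about 1 in 20 groups by the criterion used here, the gap to the nearest sample against Dixon's critical value (0.71 for 5 samples), and only the control groups had enough samples to be examined. In the wild-type standard housing controls, Thrb was at 6.783 in replicate 5, below the other 4 controls at 7.06 to 7.12; this array belongs to array set 4, in which the mean of Thrb was also the lowest, at 6.76. In the same group Klf9 was at 9.4032 in replicate 3, above the others at 8.71 to 8.84; this array belongs to array set 2, in which the mean of Klf9 was the highest, at 9.46.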

How the results depend on the processing

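Over 41 alternatives the averaged novelty difference of Dio2 ran from 0.64 to 0.74, and 0 other pathway genes were called for novelty in any of them. Of all results recomputed, 1016 kept direction and call, 59 changed sign, 15 passed the threshold only under the alternative and 12 counts moved. The sign changes were all in values that were not called. With the replicate block Thrb novelty was -0.0142, and the TSA count was 4 of 44 (Crym 0.23, Secisbp2 -0.23, Slco1a4 -0.38, Thrsp 0.27), against 0 without a block, 3 with array set as a block and 2 with vehicle controls only and that block. It was 1 with array weights, 1 after repeated quantile normalization and 2 with the set block and set 4 left out. With array weights Thrb novelty was -0.0166, Dio2 TSA 0.012, Klf9 TSA 0.0687, Hr cbp+/- 0.0232, Dio2 genotype by novelty 0.0797 and Dio2 TSA by novelty -0.1314. After repeated quantile normalization Klf9 TSA was 0.009. Without the choroid-raised arrays Thrb novelty was -0.0022 and Dio2 genotype by novelty 0.0455. With the set block and set 2 left out, Thrb novelty was -0.0455, Dio2 TSA 0.1001 and Thra TSA -0.0166, and 1 gene, Crebbp, was called for genotype (0.25, limma adjusted p = 0.0396). With set 3 left out, Slco1c1 TSA was 0.0169, Thra TSA -0.0205 and Hr cbp+/- 0.0294. With set 4 left out, Thra novelty was -0.0299, Klf9 cbp+/- 0.0169 and Dio2 genotype by novelty 0.0121. The causes were not tested.

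Leaving out each array in turn gave -0.2958 to 0.1447 for Dio2 genotype by novelty, -0.0516 to 0.0438 for Dio2 TSA, -0.0767 to 0.0132 for Hr cbp+/-, -0.0108 to 0.0834 for Hr novelty, -0.0017 to 0.0925 for Hr TSA, -0.0687 to 0.0537 for Klf9 TSA, -0.0714 to 0.0145 for Thra cbp+/- and -0.0346 to 0.0444 for Thrb novelty. With no change of sign or call it gave -0.2055 to -0.0954 for Dio2 cbp+/-, -0.128 to -0.0536 for Thrb cbp+/-, 0.0561 to 0.1267 for Slco1c1 novelty and 0.0477 to 0.1373 for Thra novelty. The TSA count was 0 to 1: Secisbp2 was called without wild-type control 5, wild-type novelty TSA 2, cbp+/- control 3, cbp+/- novelty vehicle 1 or cbp+/- novelty TSA 3. With dim genes removed Hr, Secisbp2 and Slc16a10 could not be tested.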
